A study of Mus musculus with 9 samples.

Results

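Polycomb repressive complex 2 (PRC2) was followed through the 10 transcripts that encode its subunits and accessory factors: Ezh1, Ezh2, Eed, Suz12, Rbbp4, Rbbp7, Phf1, Phf19, Mtf2 and Jarid2. The genes were taken by symbol, and all 10 were among the 24421 gene symbols counted and among the 11577 genes with enough reads to test. The RNA was from intestines of C57BL/6 mice at postnatal day 6, whose cells were taken fresh and sorted by antibody on EphB2, a receptor that is high on crypt cells and lost as they move onto the villus. Mice were wild type (WT) or IκBα knockout (KO), the labels' term for loss of Nfkbia, whose product holds NF-κB dimers in the cytoplasm. The 4 groups held 9 libraries, of which 3 were KO EphB2-positive and 2 each were KO EphB2-negative, WT EphB2-positive and WT EphB2-negative. The sources used here do not give how the knockout was made, whether animals were pooled or which segment of intestine was taken. The labels do not tie replicates to separate animals, so each p-value speaks only for the spread among these samples.

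PRC2 places methyl groups on lysine 27 of histone H3, a mark that keeps developmental genes silent. Its catalytic subunit is either EZH2, the form typical of dividing cells, or EZH1, the form that persists in resting cells. EED binds the finished mark and stimulates the enzyme, SUZ12 is the scaffold, and RBBP4 and RBBP7 bind histones and also serve other chromatin complexes such as NuRD and Sin3. The Polycomb-like proteins PHF1, MTF2 and PHF19 bring one form of the complex to CpG islands, and JARID2 belongs to the alternative form. In the intestinal epithelium, PRC2 is known for keeping crypt progenitors dividing and for holding back genes of other lineages and of differentiation.

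Promoter stretches are shown for 6 of the 7 members called between genotypes in either sort, all except Eed, because several of these genes moved together. All 10 members had a promoter in the RefSeq table for GRCm38.p6, which gives 300 bases around each start. Capitals mark matches, on either strand, to 3 motifs: the E2F words TTTCCCGC, TTTCGCGC, TTTGGCGC and TTTGCCGC, the κB motif of NF-κB, and CCAAT, the site of NF-Y. Each stretch is read 5′ to 3′ on the strand of the gene.
Ezh2, chr6:47595031-47595180, minus strand: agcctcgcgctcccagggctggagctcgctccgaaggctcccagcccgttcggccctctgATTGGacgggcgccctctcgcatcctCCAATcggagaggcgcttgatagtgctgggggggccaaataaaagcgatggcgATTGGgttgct
Suz12, chr11:79992881-79993105, plus strand: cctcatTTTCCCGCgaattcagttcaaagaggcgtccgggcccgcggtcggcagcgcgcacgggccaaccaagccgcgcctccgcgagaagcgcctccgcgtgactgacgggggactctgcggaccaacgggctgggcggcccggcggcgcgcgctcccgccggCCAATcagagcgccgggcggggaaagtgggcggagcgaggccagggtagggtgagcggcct
Rbbp4, chr4:129335371-129335430, minus strand: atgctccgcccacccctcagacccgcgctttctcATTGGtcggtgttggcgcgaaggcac
Rbbp7, chrX:162760247-162760369, plus strand: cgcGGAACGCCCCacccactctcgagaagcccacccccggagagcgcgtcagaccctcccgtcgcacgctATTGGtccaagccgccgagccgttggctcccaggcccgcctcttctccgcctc
Jarid2, chr13:44730554-44730604, plus strand: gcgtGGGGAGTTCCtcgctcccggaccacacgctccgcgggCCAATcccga
Phf19, chr2:34914136-34914191, minus strand: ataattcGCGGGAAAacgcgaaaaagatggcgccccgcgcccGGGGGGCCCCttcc

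An E2F word stood in the promoters of 3 members, against 2.26% of the 32851 promoters in the table. For Suz12 and Phf19 it was TTTCCCGC, at bases -219 to -212 and -208 to -201 before the start, and for Ezh2 it was TTTGGCGC at bases 4 to 11 past the start, outside the stretch shown. The κB motif stood in the promoters of 3 members, Rbbp7, Phf19 and Jarid2, against 8.46% of all promoters, and CCAAT in those of 7 members, against 37.4%. Eed had 1 CCAAT match, and the promoters of Ezh1 and Phf1 held none of the 3 motifs. No matches to different motifs overlapped in these promoters. These are matches of letters, and the data hold no measurement of binding.

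The libraries held 1503972 to 2074076 reads in genes, so that 3 reads corresponded to 1.45 to 1.99 CPM, counts scaled to a common library size. Values are CPM scaled also for library composition, given per library or as mean ± SD. Log2 fold changes are given ± SE from edgeR's quasi-likelihood test with Benjamini-Hochberg adjustment over all genes tested, and a gene was called at an adjusted p under 0.05. In the 4 WT libraries Nfkbia had 47 to 163 reads, and all 5 KO libraries had 0. Ephb2 stood at 142 to 183 CPM in the 5 EphB2-positive libraries and at 30.7 and 34.4 CPM in KO EphB2-negative cells, but at 125 and 66.8 CPM in WT EphB2-negative replicates 1 and 2. WT EphB2-negative replicate 1 stood apart in other ways too. On the first principal component, which held 62.7% of the variance, it lay at -12.4, between the EphB2-positive libraries (-56.8 to -48.7) and its own replicate 2 (66.7). Many results between groups that include it are also given without it, and the others only with it. Without it, that group held 1 library, so adjusted p-values of such fits rest on the spread in the other groups. The same holds for every fit that left 1 library in a group.

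The sort also carried other cells. A list of 11 pan-leukocyte genes summed to 63.1 to 113 CPM in EphB2-positive libraries, where 6 to 9 of them had no reads, and Ptprc, which encodes the leukocyte antigen CD45, had none in 4 of the 5. The same list summed to 132 and 1210 CPM in WT EphB2-negative replicates 1 and 2 and to 1730 and 1360 CPM in KO EphB2-negative cells, with no gene at 0. A list of 24 cell cycle genes summed to 5360 to 5760 CPM in EphB2-positive libraries, 4120 and 1720 CPM in WT EphB2-negative replicates 1 and 2, and 1310 and 1090 CPM in KO EphB2-negative cells. In EphB2-positive libraries, 10 crypt stem cell genes summed to 5060 and 4610 CPM in WT and 2650, 2340 and 3420 in KO. Their EphB2-negative sums were 2380 and 578 CPM in WT and 175 and 250 in KO. A list of 12 absorptive enterocyte genes summed to 2490 and 4260 CPM in WT and 1620, 1540 and 1370 in KO EphB2-positive libraries. Its EphB2-negative sums were 13000 and 30700 CPM in WT and 27000 and 38800 in KO. For 10 genes of mesenchyme and endothelium the sums were 8.84 to 91.5 CPM in EphB2-positive libraries. They were 12.3 and 73.1 CPM in WT and 168 and 221 in KO EphB2-negative libraries, and only the last group had no such gene at 0. The part of these lists in the PRC2 differences was not tested. In sorted bulk cells, fewer cells of a type and less RNA per cell cannot be told apart.

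In KO, PRC2 transcripts divided into members high in EphB2-positive cells and members high in EphB2-negative cells: 6 members rose in EphB2-positive against EphB2-negative cells (Ezh2, Eed, Suz12, Rbbp4, Rbbp7 and Mtf2), 3 fell (Ezh1, Phf1 and Jarid2) and Phf19 did not pass. The background was high, since 55.5% of all genes tested were called in that comparison, 26.4% up and 29.2% down. The libraries of the sorts did not overlap for 9 of the 10 members, against 77.1% of all genes. In WT they did not overlap for 6, against 54.4%. The WT background was 4.43% (0.656% up and 3.77% down), and 0 of 10 members passed edgeR's test. There 3 members (Ezh2, Rbbp4 and Phf1) had an unadjusted p under 0.05, as had 3287 of the 11577 genes tested. DESeq2 called 1 member, Ezh2, and 976 of the 11577 genes. Without WT EphB2-negative replicate 1, the WT log2 fold changes were 1.41 for Ezh2, 0.86 for Rbbp4, 0.82 for Rbbp7 and -2.37 for Phf1. That fit left 1 library in the group and called far more of all genes too, so its calls are not counted here.

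**Figure D1:**
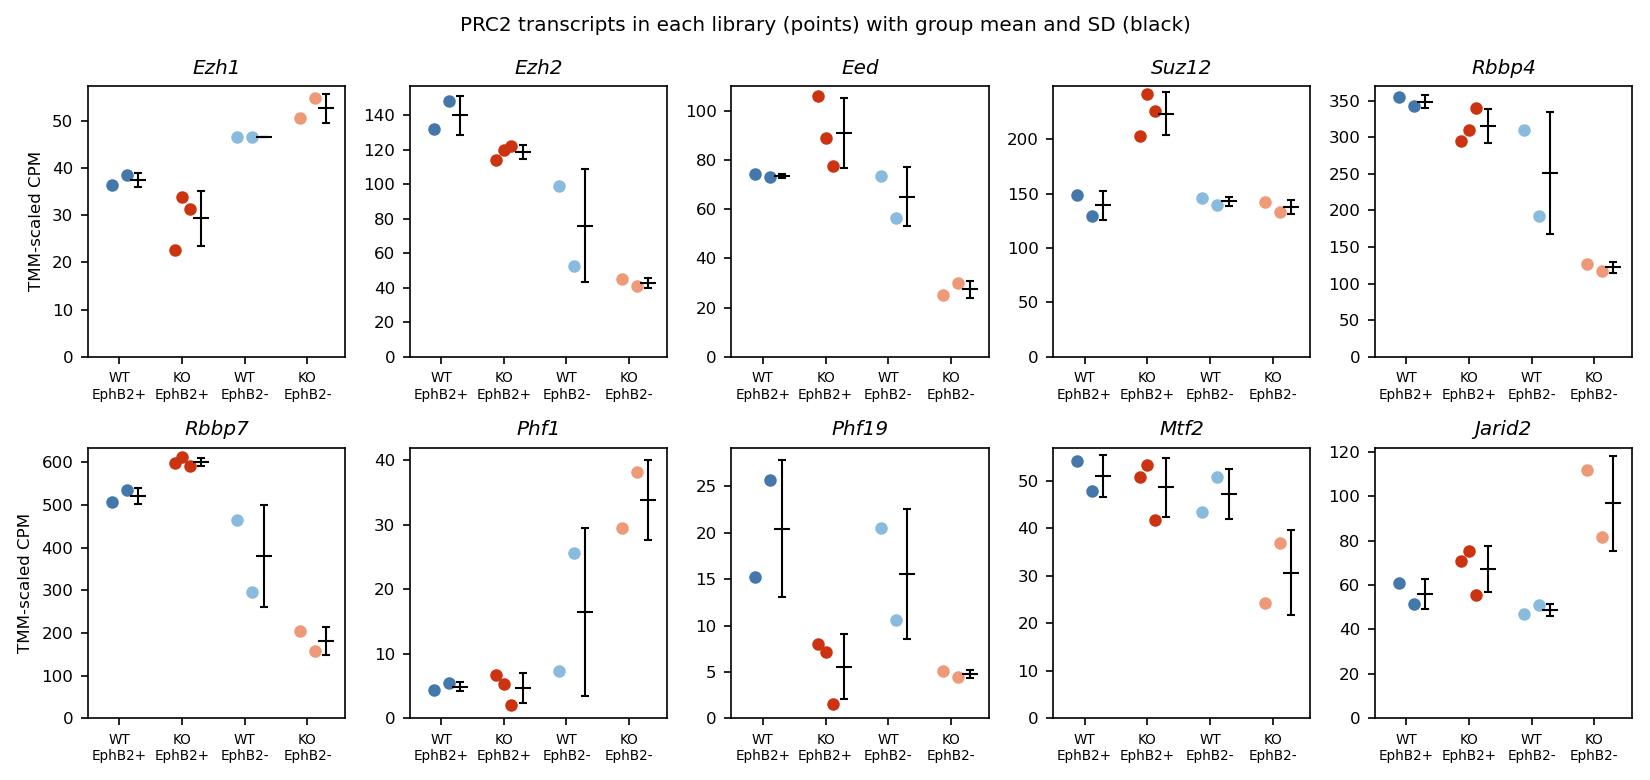
Level of each PRC2 transcript in every library (vertical axes: composition-scaled CPM from 0, a scale per gene; horizontal axes: the 4 groups), with black bars for the group mean and SD. Ezh2, Eed, Rbbp4 and Rbbp7 are lowest in KO EphB2-negative cells, where Ezh1, Phf1 and Jarid2 are highest, and Suz12 is highest in KO EphB2-positive cells.

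The catalytic subunits were opposite in their distribution. Ezh2 (chromosome 6, 47530139 to 47595341, minus strand; positions of genes are those of GENCODE for GRCm38) stood at 132 and 148 CPM in WT EphB2-positive, 114, 120 and 122 in KO EphB2-positive, 99.1 and 52.7 in WT EphB2-negative, and 44.8 and 40.8 CPM in KO EphB2-negative libraries. Every EphB2-positive library was above every EphB2-negative one, and WT EphB2-negative replicate 1 was the closest to them. In KO, Ezh2 was 2.77-fold higher in EphB2-positive cells (log2 fold change 1.47 ± 0.25, adjusted p = 0.00088), a call kept in all 9 fits that left out 1 library. In WT the difference of 0.88 ± 0.25 missed the threshold (adjusted p = 0.065), and without WT EphB2-negative replicate 1 it was 1.41.

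Between genotypes, Ezh2 did not pass in EphB2-positive cells, where KO stood at 119 ± 4.04 and WT at 140 ± 11.2 CPM (log2 fold change -0.24 ± 0.22, adjusted p = 0.52). In EphB2-negative cells Ezh2 fell to 42.8 ± 2.85 from 75.9 ± 32.8 CPM (log2 fold change -0.83 ± 0.26, adjusted p = 0.039). That call was lost in 8 of the 9 fits that left out 1 library, all except the one without WT EphB2-negative replicate 2, and by DESeq2 (adjusted p = 0.078). Without WT EphB2-negative replicate 1 the log2 fold change was -0.30 (adjusted p = 0.28).

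Ezh1 (chromosome 11, 101191115 to 101226463, minus strand) ran the other way, at 36.4 and 38.5 CPM in WT EphB2-positive, 22.7, 33.8 and 31.4 in KO EphB2-positive, 46.6 and 46.5 in WT EphB2-negative, and 50.5 and 54.8 CPM in KO EphB2-negative libraries. All EphB2-positive libraries were below all EphB2-negative ones. In KO, Ezh1 fell 1.78-fold in EphB2-positive against EphB2-negative cells (log2 fold change -0.83 ± 0.19, adjusted p = 0.005), and the call was kept in all 9 fits that left out 1 library. The WT difference was -0.31 ± 0.21 (adjusted p = 0.34). Between genotypes Ezh1 did not pass in EphB2-positive cells (-0.34 ± 0.20, adjusted p = 0.28) or in EphB2-negative cells (0.18 ± 0.21, adjusted p = 0.54).

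Within a library, Ezh2 had 3.55 to 5.03 reads for each Ezh1 read in the 5 EphB2-positive libraries. The ratio was 2.13 and 1.14 in WT EphB2-negative replicates 1 and 2, and 0.886 and 0.744 in KO EphB2-negative cells, the only group of the 4 in which Ezh1 reads outnumbered those of Ezh2. The genes have nearly the same exon length (6678 bases for Ezh2 and 7440 for Ezh1), so the order also held per length in KO EphB2-negative cells, at 6.41 ± 0.42 CPM per kilobase for Ezh2 and 7.08 ± 0.41 for Ezh1, ranges that meet within their SD.

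**Figure D2:**
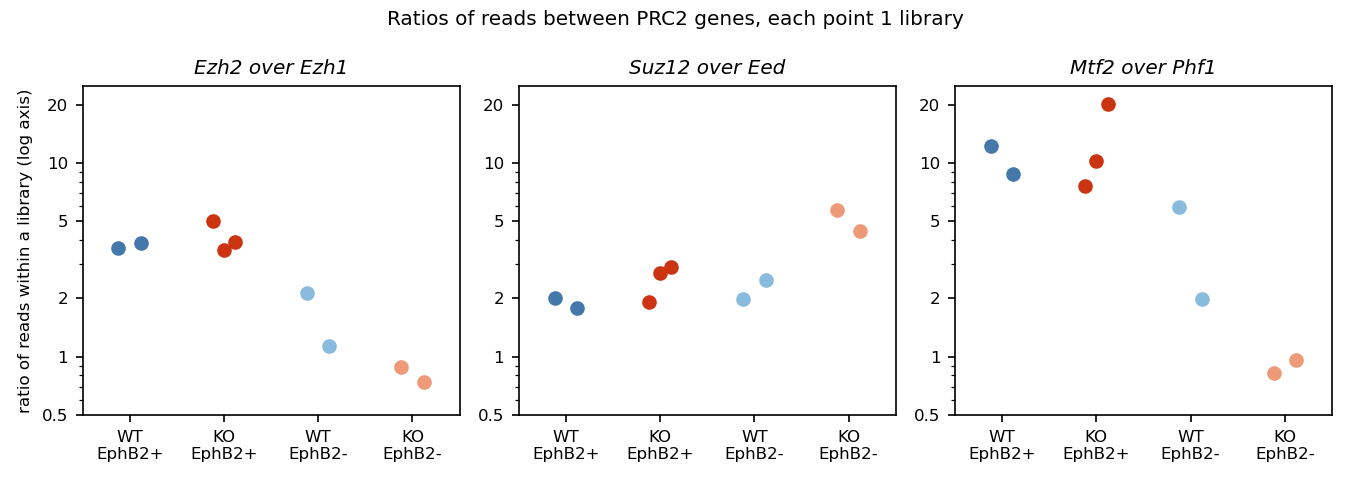
Ratio of reads between pairs of PRC2 genes in each library (points; vertical log axis), by group: Ezh2 over Ezh1, Suz12 over Eed, and Mtf2 over Phf1. KO EphB2-negative libraries have the lowest Ezh2 over Ezh1 ratios (0.744 and 0.886), the highest Suz12 over Eed ratios (4.45 and 5.69) and the lowest Mtf2 over Phf1 ratios (0.826 and 0.967).

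The other core subunits, Eed and Suz12, did not move together. Eed (chromosome 7, 89954654 to 89980983, minus strand) stood at 74.2 and 73 CPM in WT EphB2-positive, 106, 89 and 77.6 in KO EphB2-positive, 73.5 and 56.6 in WT EphB2-negative, and 25 and 29.9 CPM in KO EphB2-negative libraries. KO EphB2-negative cells stood alone at the bottom, while the WT sorts overlapped. In EphB2-negative cells Eed fell 2.37-fold in KO, from 65.1 ± 11.9 to 27.4 ± 3.52 CPM (log2 fold change -1.24 ± 0.22, adjusted p = 0.004). Of the 5 members called in that comparison, it was the only one whose call was kept in all 9 fits that left out 1 library (-1.43 to -1.04, adjusted p at most 0.036). Without WT EphB2-negative replicate 1 its log2 fold change was -1.04 (adjusted p = 0.003).

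In EphB2-positive cells the Eed difference between genotypes had the opposite sign and did not pass (0.30 ± 0.18, adjusted p = 0.31). The genotype effect on Eed differed between the sorts by 1.55 ± 0.29 on the log2 scale (adjusted p = 0.014), a call lost in 4 of the 9 fits that left out 1 library: either WT EphB2-positive or either KO EphB2-negative replicate (adjusted p up to 0.072). Between the sorts, Eed was 3.3-fold higher in EphB2-positive cells of KO (log2 fold change 1.72 ± 0.21, adjusted p = 0.00016), kept in all 9 fits. In WT the difference was 0.18 ± 0.20 (adjusted p = 0.59), and 0.38 without WT EphB2-negative replicate 1 (adjusted p = 0.17).

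Suz12 (chromosome 11, 79993106 to 80034123, plus strand) stood at 149 and 130 CPM in WT EphB2-positive, 203, 242 and 226 in KO EphB2-positive, 146 and 140 in WT EphB2-negative, and 142 and 133 CPM in KO EphB2-negative libraries. The KO EphB2-positive libraries were above all 6 others, which lay within 130 to 149 CPM. It was the only member to rise in KO against WT EphB2-positive cells, 1.6-fold, to 224 ± 19.6 from 140 ± 13.8 CPM (log2 fold change 0.68 ± 0.14, adjusted p = 0.011). The call was lost without WT EphB2-positive replicate 1 (adjusted p = 0.052), WT EphB2-positive replicate 2 (0.11) or KO EphB2-positive replicate 2 (0.056), with log2 fold changes of 0.59 to 0.79 over all 9 fits that left out 1 library.

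Between the sorts of KO, Suz12 was 1.63-fold higher in EphB2-positive cells (0.70 ± 0.14, adjusted p = 0.0024), kept in all 9 fits, and in WT the difference was -0.04 ± 0.15 (adjusted p = 0.9). In EphB2-negative cells the genotypes stood at 138 ± 6.33 and 143 ± 3.74 CPM for KO and WT (-0.06 ± 0.15, adjusted p = 0.81). The genotype effect on Suz12 differed between the sorts by 0.74 ± 0.21 (adjusted p = 0.046), but the call was lost by DESeq2 (adjusted p = 0.056) and in the 7 fits that left out 1 library other than a WT EphB2-negative one.

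As a ratio within libraries, Suz12 had 1.78 and 2.01 reads per Eed read in WT EphB2-positive, 1.91 to 2.91 in KO EphB2-positive, 1.98 and 2.48 in WT EphB2-negative, and 5.69 and 4.45 in KO EphB2-negative libraries. The KO EphB2-negative ratios lay above those of all 7 other libraries. Eed shared 5.82% and Suz12 2.6% of their 50-base exon words with other genes.

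The histone-binding subunits passed or missed the test in the same comparisons of 2 groups. Rbbp7 (chromosome X, 162760402 to 162779092, plus strand) stood at 508 and 535 CPM in WT EphB2-positive, 599, 612 and 592 in KO EphB2-positive, 465 and 296 in WT EphB2-negative, and 205 and 159 CPM in KO EphB2-negative libraries. The 4 groups did not overlap. Rbbp4 (chromosome 4, 129307100 to 129335370, minus strand) stood at 355 and 342 CPM in WT EphB2-positive, 295, 310 and 340 in KO EphB2-positive, 310 and 192 in WT EphB2-negative, and 127 and 117 CPM in KO EphB2-negative libraries. For Rbbp4, the KO EphB2-positive libraries overlapped WT EphB2-negative replicate 1, and KO EphB2-negative cells were again the lowest.

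In KO, Rbbp7 was 3.3-fold higher in EphB2-positive cells (log2 fold change 1.72 ± 0.21, adjusted p = 0.00018). Rbbp4 was 2.58-fold higher there (1.37 ± 0.20, adjusted p = 0.00047). Both calls were kept in all 9 fits that left out 1 library. In WT, Rbbp7 had a difference of 0.46 ± 0.22 (adjusted p = 0.2) and Rbbp4 of 0.47 ± 0.21 (adjusted p = 0.17). These became 0.82 and 0.86 without WT EphB2-negative replicate 1.

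Between genotypes in EphB2-negative cells, Rbbp7 fell 2.09-fold, to 182 ± 33.1 from 380 ± 119 CPM (log2 fold change -1.06 ± 0.22, adjusted p = 0.0077), and Rbbp4 2.06-fold, to 122 ± 7.63 from 251 ± 83 CPM (-1.04 ± 0.22, adjusted p = 0.0075). Both calls were lost without KO EphB2-negative replicate 2 (adjusted p = 0.081 and 0.07). Without WT EphB2-negative replicate 1 they were kept with smaller log2 fold changes, -0.70 for Rbbp7 and -0.66 for Rbbp4. In EphB2-positive cells neither passed, with 0.20 ± 0.20 for Rbbp7 (adjusted p = 0.54) and -0.15 ± 0.19 for Rbbp4 (adjusted p = 0.67).

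The genotype effect on Rbbp7 differed between the sorts by 1.27 ± 0.30 (adjusted p = 0.027), a call lost in the 7 fits that left out 1 library other than a WT EphB2-negative one (adjusted p up to 0.12). For Rbbp4 the difference of 0.90 ± 0.29 missed the threshold (adjusted p = 0.069) and was called by DESeq2 (adjusted p = 0.05). Without WT EphB2-negative replicate 1 the Rbbp4 difference was 0.52. Rbbp4 shared 17.2% of its 50-base exon words with 20 other genes and Rbbp7 11.2% with 2. Words were matched on either strand, so these include genes that overlap on the opposite strand. The largest sharer of Rbbp4, Gm26722 (8.5%), is such a gene and was not counted. Where the other gene was counted or lay elsewhere in the genome, reads could have been split or set aside.

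The Polycomb-like proteins showed 3 separate patterns. Mtf2 (chromosome 5, 108065674 to 108109004, plus strand), the most abundant of them, stood at 54 and 47.9 CPM in WT EphB2-positive, 50.7, 53.3 and 41.6 in KO EphB2-positive, 43.4 and 50.8 in WT EphB2-negative, and 24.3 and 36.9 CPM in KO EphB2-negative libraries. KO EphB2-negative libraries were the lowest, and the other 3 groups overlapped. In KO it was 1.58-fold higher in EphB2-positive cells (log2 fold change 0.66 ± 0.22, adjusted p = 0.028), a call lost without KO EphB2-positive replicate 1 or 2 or KO EphB2-negative replicate 1 (adjusted p up to 0.2) and by DESeq2 (adjusted p = 0.13). The difference between genotypes in EphB2-negative cells was -0.62 ± 0.24 (adjusted p = 0.075), and it passed without WT EphB2-negative replicate 1 (-0.73, adjusted p = 0.038). In EphB2-positive cells it was -0.07 ± 0.21 (adjusted p = 0.87). Mtf2 overlaps Tmed5 on the opposite strand along 395 bases, or 6.93% of its exon length. Tmed5 had 109, 189 and 176 reads in KO EphB2-positive and 65 and 52 in KO EphB2-negative libraries. As the strand setting is not given, reads of both genes cannot be told apart along that stretch.

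Phf1 (chromosome 17, 26933052 to 26937908, plus strand) rested on few reads in EphB2-positive cells: 9 and 11 in WT and 10, 11 and 4 in KO. Its level there was 2.06 to 6.67 CPM, against 7.3 and 25.6 CPM in WT EphB2-negative replicates 1 and 2 and 29.4 and 38.2 CPM in KO EphB2-negative libraries. All EphB2-negative libraries were above all EphB2-positive ones. In KO, Phf1 fell 7.32-fold in EphB2-positive against EphB2-negative cells (log2 fold change -2.87 ± 0.55, adjusted p = 0.0019), kept in all 9 fits that left out 1 library. In WT the difference was -1.72 ± 0.62 (adjusted p = 0.12), and -2.37 without WT EphB2-negative replicate 1.

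Between genotypes Phf1 did not pass in EphB2-positive cells (-0.11 ± 0.65, adjusted p = 0.95) or in EphB2-negative cells (1.04 ± 0.54, adjusted p = 0.17). The latter value turned on single libraries: it was 0.40 without WT EphB2-negative replicate 1 (adjusted p = 0.44), and it was called at 2.19 without replicate 2 of that group (adjusted p = 0.00062). Phf1 overlaps Cuta on the opposite strand along 1370 bases, or 39.3% of its exon length. The sources used here do not say whether the counting used strand, so reads of the 2 genes cannot be told apart along that stretch. Cuta had 82 to 175 reads per library, 106 to 139 of them in EphB2-negative libraries. Mtf2 had 7.6 to 20.2 reads per Phf1 read in EphB2-positive libraries, 5.94 and 1.98 in WT EphB2-negative replicates 1 and 2, and 0.826 and 0.967 in KO EphB2-negative cells.

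Phf19 (chromosome 2, 34893757 to 34914026, minus strand) was the one member with every KO library of both sorts below every WT library of both sorts. Within each sort taken alone, the KO libraries of Ezh2 and Rbbp4 were also below the WT ones. It had 31 and 52 reads (15.2 and 25.7 CPM) in WT EphB2-positive libraries, with 45 and 22 reads (20.5 and 10.6 CPM) in WT EphB2-negative libraries. In KO it had 12, 15 and 3 reads (8.01, 7.14 and 1.54 CPM) in EphB2-positive and 8 and 7 reads (5.12 and 4.46 CPM) in EphB2-negative libraries. The highest KO library, at 8.01 CPM, was below the lowest WT library, at 10.6 CPM.

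In EphB2-positive cells Phf19 fell 3.7-fold in KO, to 5.56 ± 3.51 from 20.4 ± 7.37 CPM (log2 fold change -1.89 ± 0.54, adjusted p = 0.043). The call was lost by DESeq2 (adjusted p = 0.068) and in 7 of the 9 fits that left out 1 library (adjusted p up to 0.3), all except those without a WT EphB2-negative replicate. In EphB2-negative cells the difference of -1.69 ± 0.65 missed the threshold (adjusted p = 0.073), and without WT EphB2-negative replicate 1 it was -1.14 (adjusted p = 0.2). It passed without WT EphB2-negative replicate 2 (-2.09, adjusted p = 0.0055) and without KO EphB2-positive replicate 3 (-1.69, adjusted p = 0.037). The genotype effect did not differ by the test between the sorts (-0.19 ± 0.87, adjusted p = 0.91). Between sorts Phf19 had 0.39 ± 0.55 in WT (adjusted p = 0.67) and 0.19 ± 0.66 in KO (adjusted p = 0.82). Without WT EphB2-negative replicate 1 the WT value was 0.93. It shared no exon words with other genes.

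Jarid2 (chromosome 13, 44729474 to 44921643, plus strand) stood at 60.9 and 51.3 CPM in WT EphB2-positive, 70.7, 75.2 and 55.5 in KO EphB2-positive, 47 and 50.8 in WT EphB2-negative, and 112 and 81.5 CPM in KO EphB2-negative libraries. KO EphB2-negative libraries were the highest and WT EphB2-negative libraries the lowest. With all 9 libraries, Jarid2 was the only member to rise in KO against WT EphB2-negative cells, 1.98-fold, to 96.7 ± 21.5 from 48.9 ± 2.68 CPM (log2 fold change 0.98 ± 0.22, adjusted p = 0.0097). The call was lost without KO EphB2-negative replicate 1 (0.72, adjusted p = 0.079) and kept without WT EphB2-negative replicate 1 (0.93, adjusted p = 0.0068).

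Between the sorts of KO, Jarid2 fell 1.44-fold in EphB2-positive cells (-0.53 ± 0.19, adjusted p = 0.041). That call was lost without either WT EphB2-positive replicate, KO EphB2-positive replicate 1 or 3 or KO EphB2-negative replicate 1 (adjusted p up to 0.38), and by DESeq2 (adjusted p = 0.056). In WT the difference was 0.20 ± 0.22 (adjusted p = 0.58). Between genotypes in EphB2-positive cells it was 0.26 ± 0.20 (adjusted p = 0.43), and the genotype effects differed between the sorts by -0.72 ± 0.29, which missed the threshold (adjusted p = 0.13).

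**Figure D3:**
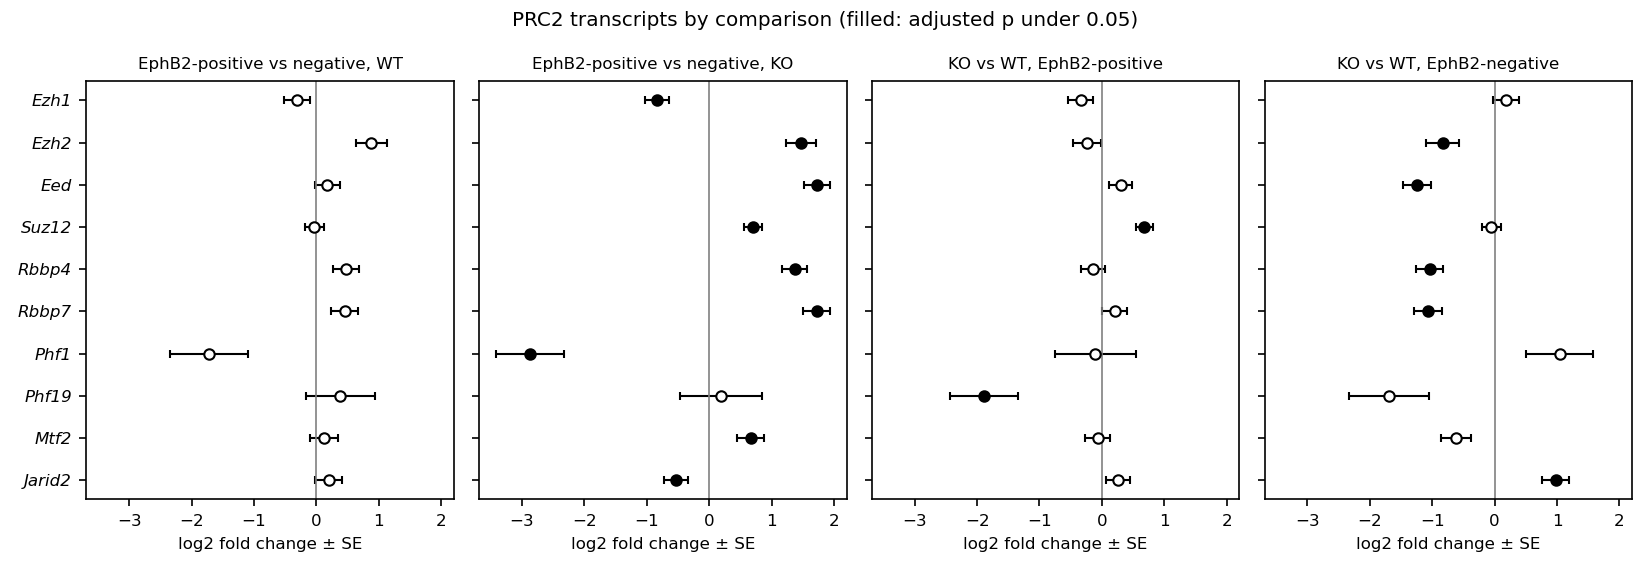
Log2 fold change (horizontal axes, bars ± SE) of each PRC2 member (rows) in the 4 comparisons of 2 groups, with filled points for adjusted p under 0.05. The widest spread of members is between the sorts of KO, from -2.87 for Phf1 to 1.72 for Eed and Rbbp7.

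By comparison, 2 members changed in KO against WT EphB2-positive cells, Suz12 up and Phf19 down, where 15.1% of all genes tested were called (7.01% up and 8.07% down). DESeq2 called 1 of them, Suz12, and 1442 of the 11577 genes tested. The 10 members had a median log2 fold change of -0.09, against -0.01 for all genes. In EphB2-negative cells 5 members changed, with Ezh2, Eed, Rbbp4 and Rbbp7 down and Jarid2 up, where 29.9% of all genes were called (13.7% up and 16.2% down). There DESeq2 called 4 members and 2551 of the 11577 genes tested. The median of the members was -0.72, against -0.09 for all genes. Fitted on the 4 EphB2-negative libraries alone, 0 of the 5 calls remained, with adjusted p of 0.081 for Eed, 0.091 for Jarid2, 0.12 for Rbbp4, 0.12 for Rbbp7 and 0.21 for Ezh2. The libraries of the genotypes did not overlap for 7 members in EphB2-positive cells, against 55.6% of all genes, and for 9 in EphB2-negative cells, against 63.2%. The genotype effect differed between the sorts for 3 members (Eed, Suz12 and Rbbp7), all upward, where 12.4% of all genes were called (6.54% up and 5.81% down). Both comparisons of genotype use separate libraries, whereas each shares its libraries with a comparison of the sorts.

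Compared per kilobase of exon, Rbbp7 had the highest level in every group, from 62.6 ± 11.2 CPM per kilobase in KO EphB2-negative to 207 ± 3.49 in KO EphB2-positive cells. In WT EphB2-positive cells it was followed by Rbbp4 (39.9 ± 1.05), Suz12 (28.2 ± 2.72), Ezh2 (21.0 ± 1.69) and Eed (19.2 ± 0.22), the last pair differing by about their SD. Mtf2 (8.94 ± 0.76), Jarid2 (5.77 ± 0.70) and Ezh1 (5.03 ± 0.20) came next, then Phf19 (4.06 ± 1.47) and Phf1 (1.41 ± 0.21). In KO EphB2-positive cells Suz12, at 45.2 ± 3.96, stood above Rbbp4, at 36.0 ± 2.62. In KO EphB2-negative cells the order changed more: Suz12 stood at 27.8 ± 1.29 and Rbbp4 at 14.0 ± 0.81, and Jarid2 (9.96 ± 2.22) and Phf1 (9.7 ± 1.79) were above Eed (7.17 ± 0.91), Ezh1 (7.08 ± 0.41) and Ezh2 (6.41 ± 0.42). These last 3 were within their SD of each other, and Phf19 was the lowest, at 0.951 ± 0.093.

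Over the 9 libraries, the log2 level of Ezh2 followed that of Rbbp4 (Pearson r = 0.972), Rbbp7 (0.954) and Eed (0.872), while Suz12 was further from Ezh2 (0.456) and Phf1 ran opposite (-0.949). Against the mean of the cell cycle genes, r was 0.981 for Ezh2, 0.98 for Rbbp7, 0.964 for Rbbp4 and 0.91 for Eed, and -0.963 for Phf1 and -0.798 for Ezh1. Against the mean of the pan-leukocyte genes, r was -0.985 for Ezh2, -0.948 for Rbbp7, -0.944 for Rbbp4 and -0.888 for Eed. It was 0.943 for Phf1 and 0.788 for Ezh1. Suz12 (0.6), Mtf2 (0.646), Phf19 (0.216) and Jarid2 (-0.462) lay further from the cell cycle genes. Against the pan-leukocyte genes these had r of -0.543, -0.663, -0.248 and 0.442. These are descriptions over 9 libraries that share depth, sort and genotype.

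Other Polycomb genes were read from lists. Among 3 tested genes of further PRC2-bound factors, E130012A19Rik, the symbol under which the files hold Epop, rose in KO EphB2-positive cells. In that comparison 7.01% of all genes were called up. Epop passed the filter on low counts only through the KO EphB2-positive libraries, so its rise there was not independent of the filter. It had 14, 30 and 25 reads there against 2 and 8 in WT (12.2 ± 2.54 against 2.46 ± 2.1 CPM, log2 fold change 2.28 ± 0.59, adjusted p = 0.027). EPOP is known to bind the PRC2 form that holds Polycomb-like proteins. The call was lost without WT EphB2-positive replicate 1 or any 1 of the KO EphB2-positive replicates (adjusted p up to 0.19). Of the H3K27 demethylases, which remove the PRC2 mark, Kdm6b fell in EphB2-positive against EphB2-negative cells of KO, to 66 ± 8.22 from 126 ± 5.39 CPM (-0.93 ± 0.23, adjusted p = 0.0074). The other list gene, Kdm6a, did not pass in any comparison.

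Of 22 tested genes of PRC1, the complex that reads the PRC2 mark, 5 rose and 0 fell in EphB2-positive against EphB2-negative cells of KO, with a list median of 0.37. That share was below the 26.4% of all genes called up there. They included Kdm2b (1.54 ± 0.20, adjusted p = 0.00021), which binds CpG islands, and the ring-finger partners Pcgf6 (1.71 ± 0.26) and Bmi1 (1.06 ± 0.25). In KO against WT EphB2-negative cells 1 rose and 4 fell (median -0.41), where 29.9% of all genes were called (13.7% up and 16.2% down). In EphB2-positive cells 0 rose and 2 fell (median 0.08), where 15.1% of all genes were called (7.01% up and 8.07% down). The pair that fell there was Cbx2, a reader of the mark, at 15.4 ± 3.4 against 49 ± 1.59 CPM (-1.66 ± 0.43, adjusted p = 0.03), and Pcgf2, at 23.9 ± 3.67 against 47.7 ± 4.73 CPM (adjusted p = 0.019). Without 1 of the 7 libraries other than the WT EphB2-negative ones, the Cbx2 call was lost (log2 fold changes of -1.85 to -1.52 over all 9 fits), and the Pcgf2 call was lost without either WT EphB2-positive replicate or KO EphB2-positive replicate 2 or 3 (adjusted p up to 0.16 for both). In WT 0 of 22 passed between the sorts, with 3 at an unadjusted p under 0.05 and 0 by DESeq2. Of the 11577 genes tested, 3287 had such a p and DESeq2 called 976. These list counts changed without WT EphB2-negative replicate 1, where its group held 1 library and the counts over all genes changed as well.

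Other chromatin lists in the sort comparison of KO were PR-DUB, which removes the PRC1 mark (3 of 6 rose, 0 fell), COMPASS and MLL, which methylate lysine 4 of histone H3 (3 of 9 rose, 1 fell), NuRD, Sin3 and CAF-1, the other complexes of RBBP4 and RBBP7 (9 of 17 rose, 2 fell), and E2F with pocket proteins (5 of 11 rose, 1 fell). Their medians were 0.74, 0.40, 0.57 and 0.99, beside 0.68 for PRC2 and 2.31 for the 24 cell cycle genes, all of which rose. Of all genes, 26.4% were called up and 29.2% down. In KO against WT EphB2-negative cells the same lists had 0 up and 3 down, 0 up and 4 down, 1 up and 5 down, and 0 up and 5 down. The cell cycle list had 0 up and 15 down of 24, where 13.7% of all genes were called up and 16.2% down. Of the 3 PR-DUB genes down, Asxl3 had 11 and 10 reads in WT and 0 and 1 in KO. It passed the filter on low counts only through WT libraries, so its fall there was not independent of the filter. The genes called there were 2, 3, 4 and 4, and 11 for the cell cycle, without WT EphB2-negative replicate 1. The deacetylase Hdac2 fell there to 43.4 ± 5.56 from 119 ± 23.4 CPM (-1.45 ± 0.19, adjusted p = 0.00097), and without that library the log2 fold change was -1.23. In EphB2-positive cells 1 of the 24 cell cycle genes rose between genotypes and 0 fell (median 0.05), where 15.1% of all genes were called. More of them, as of all genes, were called without WT EphB2-negative replicate 1.

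**Figure D4:**
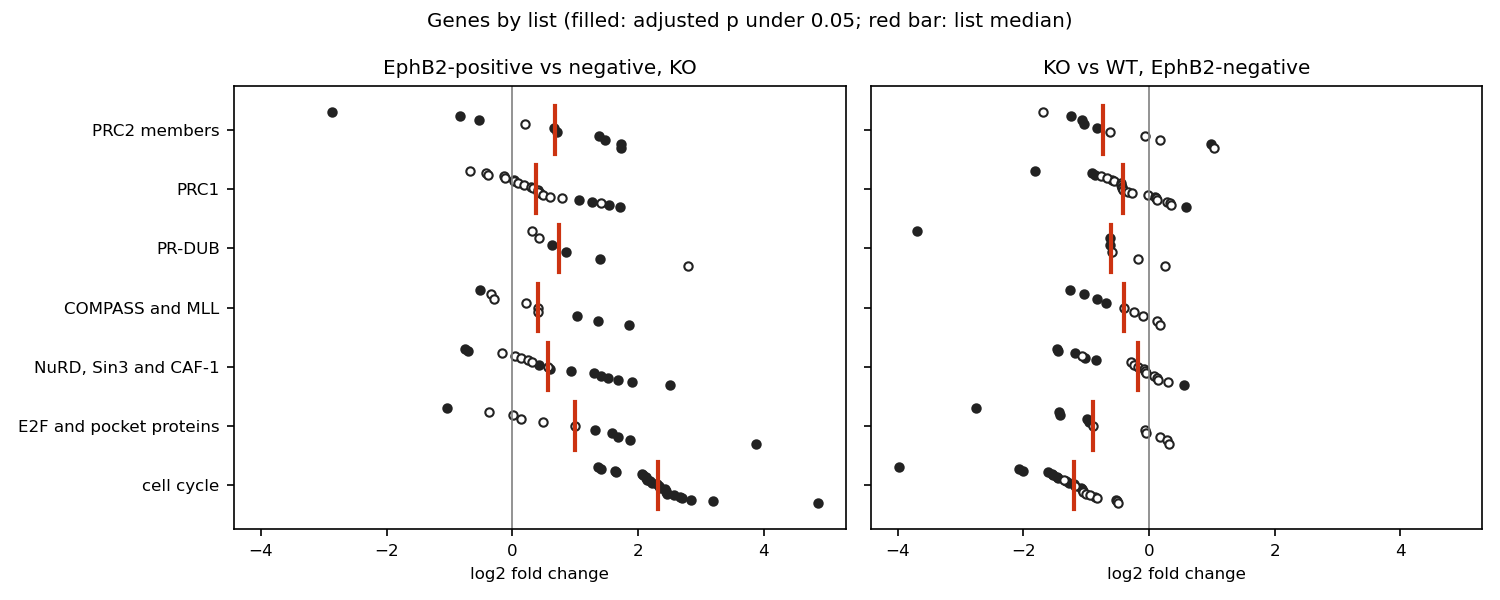
Log2 fold change (horizontal axes) of each tested gene by list (rows), between the sorts of KO and between genotypes in EphB2-negative cells; filled points passed the test and red bars are list medians. The PRC2 members have medians of 0.68 and -0.72, of smaller size than those of the cell cycle genes, 2.31 and -1.19.

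Genes known as Polycomb-silenced in many tissues were mostly too low to test: 5 of the 24 listed passed the filter on low counts. The counts below cover only those with enough reads here and do not stand for the rest of the list. Between the sorts of KO 0 of the 5 rose and 4 fell, where 29.2% of all genes fell. Cdkn2b, an inhibitor of the G1 kinases and a classic PRC2 target, stood at 14.2 and 15.3 CPM in WT EphB2-positive, 14, 12.4 and 13.4 in KO EphB2-positive, 25.6 and 61.9 in WT EphB2-negative, and 104 and 131 CPM in KO EphB2-negative libraries. In EphB2-negative cells it rose in KO (1.43 ± 0.33, adjusted p = 0.012), a call lost without KO EphB2-negative replicate 2 (adjusted p = 0.089). Its log2 fold change was 0.92 without WT EphB2-negative replicate 1 and 2.19 without replicate 2 of that group. Cdkn1c fell by 4.13 on the log2 scale in EphB2-positive against EphB2-negative cells of KO (adjusted p = 0.00026). Between the sorts of WT 0 of the 5 rose and 2 fell, where 3.77% of all genes fell. These were Cdkn1c, by 3.11 (adjusted p = 0.023), and Cdkn2b, by 1.56 (adjusted p = 0.049). Their WT calls were lost in 5 and 8 of the 9 fits that left out 1 library. In KO against WT EphB2-positive cells 0 of the 5 rose and 1 fell, the transcription factor Pax6 (adjusted p = 0.048), where 8.07% of all genes fell. Pax6 passed the filter on low counts only through WT libraries, so its fall in KO was not independent of the filter. Pax6 had 2, 1 and 2 reads in KO against 12 and 8 in WT libraries, and the call was lost by DESeq2 (adjusted p = 0.19) and in 7 of the 9 fits that left out 1 library (adjusted p up to 0.28).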

How the data were processed

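RNA-seq was deposited for 9 libraries. The authors deposited counts of reads per gene symbol, made with HTSeq against mm10 per the submitters' processing notes, which also name CASAVA 1.4, FastQC, Bowtie2 and DESeq2. Per the labels' protocols, poly(A) RNA was turned into cDNA and amplified by long-distance PCR before shearing. The sources used here do not give the annotation, the strand setting or any read filter. The 5 summary lines stayed out of sums and tests: reads with no feature were 9.97 to 14.7% and ambiguous reads 1.89 to 2.28% of each file.

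The counts were used as deposited. Libraries were grouped by the titles and entered 1 fit (edgeR 4.0.16 under R 4.3.3, genes kept by filterByExpr with the groups, TMM scaling, 4 group means, robust quasi-likelihood F test, two-sided, 5 residual degrees of freedom). Each SE was computed as the size of the log2 fold change divided by the root of F. CPM and fitted values cover amplified reads without molecular identifiers. Alternatives were DESeq2's size factors, no filter, a filter raised to 5 CPM in 2 libraries, DESeq2 1.42.0 as the test, the compared groups alone, a block on replicate numbers, a block on the code that file names carry, and leaving out each library.

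Exon lengths and overlaps came from GENCODE for GRCm38, shared words are 50 bases matched on either strand, and promoters came from RefSeq for GRCm38.p6. Epop and Ezhip were matched through RefSeq synonyms. Beside the members, up to 4 genes by p-value were named from each list described, and Nfkbia and Ephb2 as checks of the labels; list genes whose call a single library ended were mostly left out after their values were seen. Genes with a like pattern were the 5 with the highest correlation of log2 CPM among those tested with a mean of at least 20 CPM. The members and the 13 other lists were chosen with earlier results of these data known. Plots used matplotlib 3.10.9 and Python 3.11.15.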

Additional observations from a re-analysis of the deposited data

Results flagged for a closer look

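For 3 members the genotype effect differed between the sorts by the interaction test of edgeR (Benjamini-Hochberg adjusted over all genes tested). In that test 12.4% of all genes were called, 6.54% up and 5.81% down. The log2 fold change of KO against WT was larger in EphB2-positive than in EphB2-negative cells by 1.55 for Eed, which encodes the subunit that binds the finished mark, by 0.74 for Suz12, the scaffold, and by 1.27 for Rbbp7, a histone-binding subunit. For Eed and Rbbp7 the called change between genotypes was a fall in EphB2-negative cells, and for Suz12 it was a rise in EphB2-positive cells. Without WT EphB2-negative replicate 1 the differences were 1.35 for Eed (adjusted p = 0.0026), 0.72 for Suz12 (adjusted p = 0.022) and 0.91 for Rbbp7 (adjusted p = 0.0034). Over the 9 fits that left out 1 library, the difference for Eed ran from 1.35 to 1.73. That for Suz12 ran from 0.66 to 0.84, and that for Rbbp7 from 0.91 to 1.57. All 3 calls were lost without either WT EphB2-positive or either KO EphB2-negative replicate, where fewer of all genes were called as well.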

How the results depend on the processing

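Of 770 results for single members under the alternatives, 668 kept their direction and their side of the threshold, 67 lost the call, 16 gained one and 19 changed sign, all from values that had not passed. Sign changes came with the replicate block in KO against WT EphB2-positive cells (Phf1 0.26, Mtf2 0.023) and in the difference of genotype effects (Phf19 0.24), with DESeq2's size factors and DESeq2 in EphB2-negative cells (Suz12 0.028 in both), with the file-name block between the sorts of KO (Phf19 -0.22), and without single libraries. The last left ranges that span 0 for Phf1 (-0.41 to 0.26) and Mtf2 (-0.14 to 0.032) in EphB2-positive cells, Eed (-0.015 to 0.38), Suz12 (-0.13 to 0.055) and Phf19 (-0.046 to 0.93) between the sorts of WT, and Phf19 between the sorts of KO (-0.13 to 0.65) and in the difference of genotype effects (-0.75 to 0.26).

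Calls over all genes in KO against WT EphB2-positive cells were 3734 in the compared groups alone and 1055 with the replicate block, against 1746, and members called were 1 with DESeq2 and 1 with the block, against 2. In EphB2-negative cells the compared groups alone gave 149 genes, against 3456, and 0 members, against 5. Between the sorts of WT, DESeq2 gave 976 genes, the compared groups alone 1 and the file-name block 1248, against 513, and DESeq2 and the file-name block each called 1 member, against 0. For the difference of genotype effects the replicate block gave 895 genes, against 1430. The cause was not tested. Leaving out 1 library gave 568 to 3479 genes and 0 to 2 members in KO against WT EphB2-positive cells, 1096 to 5834 genes and 2 to 7 members in EphB2-negative cells, 0 to 5009 genes and 0 to 4 members between the sorts of WT, 4437 to 7697 genes and 7 to 9 members between the sorts of KO, and 32 to 3996 genes and 0 to 7 members for the difference of genotype effects. Where a group was left with 1 library, that library was assumed to vary like the other groups.

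The labels do not tie replicate numbers to animals, and same-numbered samples correlated at -0.0714 to 0.132 in their deviations from the group means, so no pairing was used. By the file-name code the correlations were 0.0714 to 0.132. The file-name block could not be fitted between genotypes, nor the compared groups alone for the difference of genotype effects. With the replicate block Phf19 was called between genotypes in EphB2-negative cells (adjusted p = 0.047), and with the file-name block Mtf2 was not called between the sorts of KO (adjusted p = 0.084). In KO against WT EphB2-negative cells DESeq2 called 1 gene of PRC1 (against 5), 0 of PR-DUB (3), 3 of COMPASS and MLL (4), 3 of NuRD, Sin3 and CAF-1 (6), 3 of E2F with pocket proteins (5) and 14 of the cell cycle (15). In EphB2-positive cells it called 1 of PRC1 (2) and 0 of the Polycomb-silenced genes (1), and between the sorts of KO 4 of PRC1 (5), 2 of PR-DUB (3) and 10 of NuRD, Sin3 and CAF-1 (11). Depth limits Phf1 and Phf19, with 3 to 60 reads per library.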

Other observations

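Over the 9 libraries, among 7772 genes tested with a mean of at least 20 CPM, the log2 levels closest to Ezh2 were those of Kif2c and Eif4b (Pearson r = 0.995 for both), Ung and Ppil1 (0.994 for both) and Uhrf1 (0.993). Those closest to Ezh1 were Dhrs3 (0.986), Pigc (0.969), 1700019G17Rik (0.965), Scpep1 (0.962) and Abhd11os (0.96). These genes were found by searching the same 9 libraries, which share sort, genotype and depth.

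Ezh2 was also set beside Mcm2, which encodes a subunit of the replicative helicase. Ezh2 had 0.55 and 0.563 reads for each Mcm2 read in WT EphB2-positive, 0.494, 0.56 and 0.592 in KO EphB2-positive, 0.633 and 0.69 in WT EphB2-negative, and 1.01 and 1.12 in KO EphB2-negative libraries. The KO EphB2-negative ratios were the highest of the 9, with 70 and 64 reads of Ezh2 and 69 and 57 of Mcm2. The ratio was chosen with earlier results known and was not tested.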
